A study of Rattus norvegicus with 9 samples.

Results

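The let-7 family was followed through small RNA libraries of the striatum of rats (Rattus norvegicus) given manganese by mouth. Its members here are 9 mature guide strands, rno-let-7a-5p, rno-let-7b-5p, rno-let-7c-5p, rno-let-7d-5p, rno-let-7e-5p, rno-let-7f-5p, rno-let-7g-5p, rno-let-7i-5p and rno-miR-98-5p, written below without the prefix for rat. They were chosen by name alone, from 1759 listed small RNAs of which 764 are miRNAs, and all 9 were present in every library. The study dosed rats by the intragastric route once a day, 6 days a week, for 8 weeks, and sequenced the small RNA of the striatum, the input nucleus of the basal ganglia. Methylcyclopentadienyl manganese tricarbonyl (MMT), an organic manganese compound used as a fuel additive, was given at 4 mg/kg in corn oil, a dose of about 1 mg of manganese per kg. Control rats received corn oil at 1 ml/kg. A positive control group received manganese chloride, MnCl2·4H2O, at 200 mg/kg in physiological saline at 10 ml/kg. The MnCl2 group thus differed from control in vehicle as well as in compound, and these cannot be told apart. Each group has 3 libraries. The series had 18 rats of 8 weeks of age (9 males and 9 females, 3 per group and sex). The labels give neither the sex behind a library nor whether it came from 1 rat or a pool, so the p-values below reflect the spread among libraries, which may be only technical.

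MicroRNAs are short RNAs that guide an Argonaute protein to messenger RNAs, mainly through the seed near their 5′ end, and lower the output of those messages. The let-7 family is known as a set of differentiation miRNAs: it is low in stem cells, where the LIN28 proteins block its maturation, and accumulates in mature tissue, brain included. Its best known targets are growth genes such as Lin28, Hmga2, Myc and the Ras genes. Each precursor is a hairpin, whose 5′ arm gives the guide strand and whose 3′ arm gives the passenger strand, which is mostly discarded.

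The sequences of the 9 guide strands are shown because the members are told apart by few bases, which bears on every value below. All 9 matched RefSeq (GRCr8) by name, and each is 22 bases long. Capitals mark the seed, bases 2 to 8 counted from 1 at the 5′ end.
let-7a-5p: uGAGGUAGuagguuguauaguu
let-7b-5p: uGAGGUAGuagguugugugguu
let-7c-5p: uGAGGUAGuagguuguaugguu
let-7d-5p: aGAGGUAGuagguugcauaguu
let-7e-5p: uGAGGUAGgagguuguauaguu
let-7f-5p: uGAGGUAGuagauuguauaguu
let-7g-5p: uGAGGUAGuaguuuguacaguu
let-7i-5p: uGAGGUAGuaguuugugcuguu
miR-98-5p: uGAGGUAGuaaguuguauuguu
The seed was the same in all 9, and no other miRNA entry of the 764 carried it. The members varied at 8 positions and shared the other 14. Counted from let-7a, let-7c differed by A19G, let-7e by U9G and let-7f by G12A, with the base of let-7a first. Let-7b differed by A17G and A19G, let-7d by U1A and U16C, let-7g by G12U and U18C, and miR-98 by G11A and A19U. Let-7i stood farthest from let-7a, with G12U, A17G, U18C and A19U. Of the 36 pairs of members, 4 differed at a single base (let-7a with let-7c, let-7e and let-7f, and let-7b with let-7c). How many mismatches the authors' counting allowed, and how it placed reads that match several entries, is not given in the sources used here, so values of such pairs are uncertain to that extent.

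In RefSeq (GRCr8) the 9 guides come from 12 loci, since let-7a, let-7c and let-7f have 2 each. On chromosome 17 the guides of Mirlet7a1 and let-7f (the Mirlet7f-1os locus) start 363 bases apart, and that of Mirlet7d lies 1765 bases farther, all inside the long noncoding RNA LOC120097935. On chromosome 7 the guides of Mirlet7c2 and Mirlet7b start 408 bases apart, and on chromosome X those of Mirlet7f2 and Mir98 start 611 bases apart within Huwe1, which encodes a ubiquitin ligase. Mirlet7i lies apart from the other members on the minus strand of chromosome 7, within the annotated span of LOC134479799. Mirlet7g lies on chromosome 8, within the annotated spans of both Rpl29 and Wdr82. The remaining copies are Mirlet7a-2 on chromosome 8, in Lnc215, and Mirlet7c1 on chromosome 11, in LOC103693508. Mirlet7e lies on chromosome 1, within Spaca6. A guide with more than 1 locus has the same mature sequence at each, so the loci cannot be told apart in its count.

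Library totals ran from 583045 counts in control 3 to 2012769 in control 1, and the 9 members together held 49328 to 199160 counts per library. The smallest member total over all libraries was 5289 counts, for let-7d. Of the miRNAs fixed as markers, the neuronal miR-9a-5p and miR-128-3p did not go below 21879 and 16373 CPM, and miR-124-3p ranged from 1947 to 2658 CPM. CPM is counts per 1000000 of the library total, here scaled by TMM, which sets libraries to a common level. Oligodendrocyte miR-338-3p ranged from 2528 to 4238 CPM and miR-219a-5p from 466 to 1095 CPM. Endothelial miR-126a-3p ranged from 5922 to 8637 CPM and miR-126a-5p from 1664 to 2884 CPM. Markers of blood, muscle and liver were low in every library: miR-451-5p reached 78.8, miR-144-3p 48.4, miR-1-3p 61.6, miR-133a-3p 38.1 and miR-122-5p 18.8 CPM. The muscle markers miR-1-3p and miR-133a-3p were highest in MnCl2 2, and no other library was above 15.2 and 12.8 CPM. MiR-486, also fixed as a blood marker, was not among the entries left by the filter on low counts.

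The 9 members together held between 7.95% and 9.89% of all counts in a library, and between 13.4% and 15.6% of the miRNA counts. The antisense miR-3596 entries, described below, are not in the member sums, but they are in the totals of all counts and of miRNA counts. Whether they hold reads of the guides was not tested. The summed level of the 9 members was 110828, 78997 and 75042 CPM in control libraries 1 to 3. It was 94625, 77714 and 97041 in MMT libraries, and 89816, 72021 and 94202 in MnCl2 libraries. Control 1 was the highest of the 9 and MnCl2 2 the lowest, and the groups overlapped. The control mean was 88289 ± 19619 CPM, the MMT mean 89793 ± 10530 and the MnCl2 mean 85347 ± 11747 (SD, n = 3). As a share of miRNA counts the family stood at 14.7% ± 1.03, 14.5% ± 0.584 and 13.8% ± 0.385 in the same order. In whole tissue, fewer cells of a type and less RNA per cell cannot be told apart.

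Let-7f, the family's leading member here, was the 4th most abundant of all miRNA entries. Its level was 34886, 25212 and 23886 CPM in control libraries 1 to 3, 28337, 24216 and 29366 in MMT, and 26729, 21601 and 29427 in MnCl2. Control 1 lay above all others, and the remaining libraries of the 3 groups were interleaved. The means were 27995 ± 6005, 27306 ± 2725 and 25919 ± 3975 CPM (SD, n = 3).

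Let-7c, made in part from the chromosome 7 pair with let-7b, ranked 8th. It stood at 23752, 17428 and 17874 CPM in control, 21856, 17196 and 20904 in MMT, and 20641, 16600 and 23504 in MnCl2. Let-7i, the only member encoded on the minus strand, ranked 10th. Its level was 22749, 14668 and 13739 CPM in control, 19347, 15825 and 20671 in MMT, and 18396, 13797 and 17765 in MnCl2. For both miRNAs the highest library was control 1, while control 2 and control 3 were near the low end.

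Let-7g and let-7a formed the next step down and were close to each other. Let-7g, the member within Rpl29 and Wdr82, measured 10298, 8902 and 7120 CPM in control. It measured 8905, 7413 and 10486 in MMT, and 10600, 7912 and 8348 in MnCl2. Let-7a, which has the sequence of the founding worm let-7, a timer of development, measured 10232, 6604 and 6424 CPM in control, 8827, 7249 and 8386 in MMT, and 7202, 6430 and 7463 in MnCl2. The control libraries spanned the whole range of let-7a, from its lowest to its highest value. Let-7b, which is known to activate the receptor TLR7 when outside cells, measured 5793, 3730 and 3694 CPM in control, 4761, 3633 and 4272 in MMT, and 3532, 3528 and 4896 in MnCl2.

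The 3 least abundant members were miR-98, let-7e and let-7d. MiR-98 is the family member with its own number, and measured 1186, 1184 and 983 CPM in control, 1014, 917 and 1334 in MMT, and 1425, 936 and 1221 in MnCl2. Let-7e, encoded beside miR-99b and miR-125a, measured 1263, 814 and 863 CPM in control, 1008, 781 and 991 in MMT, and 764, 756 and 1032 in MnCl2. Let-7d, the only member that begins with A, measured 669, 457 and 461 CPM in control, 570, 485 and 632 in MMT, and 525, 462 and 546 in MnCl2. Even let-7d ranked 105th among the 764 miRNA entries, so no member was rare. MiR-98 was highest in MnCl2 1, whereas let-7e and let-7d were highest in control 1.

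**Figure D1:**
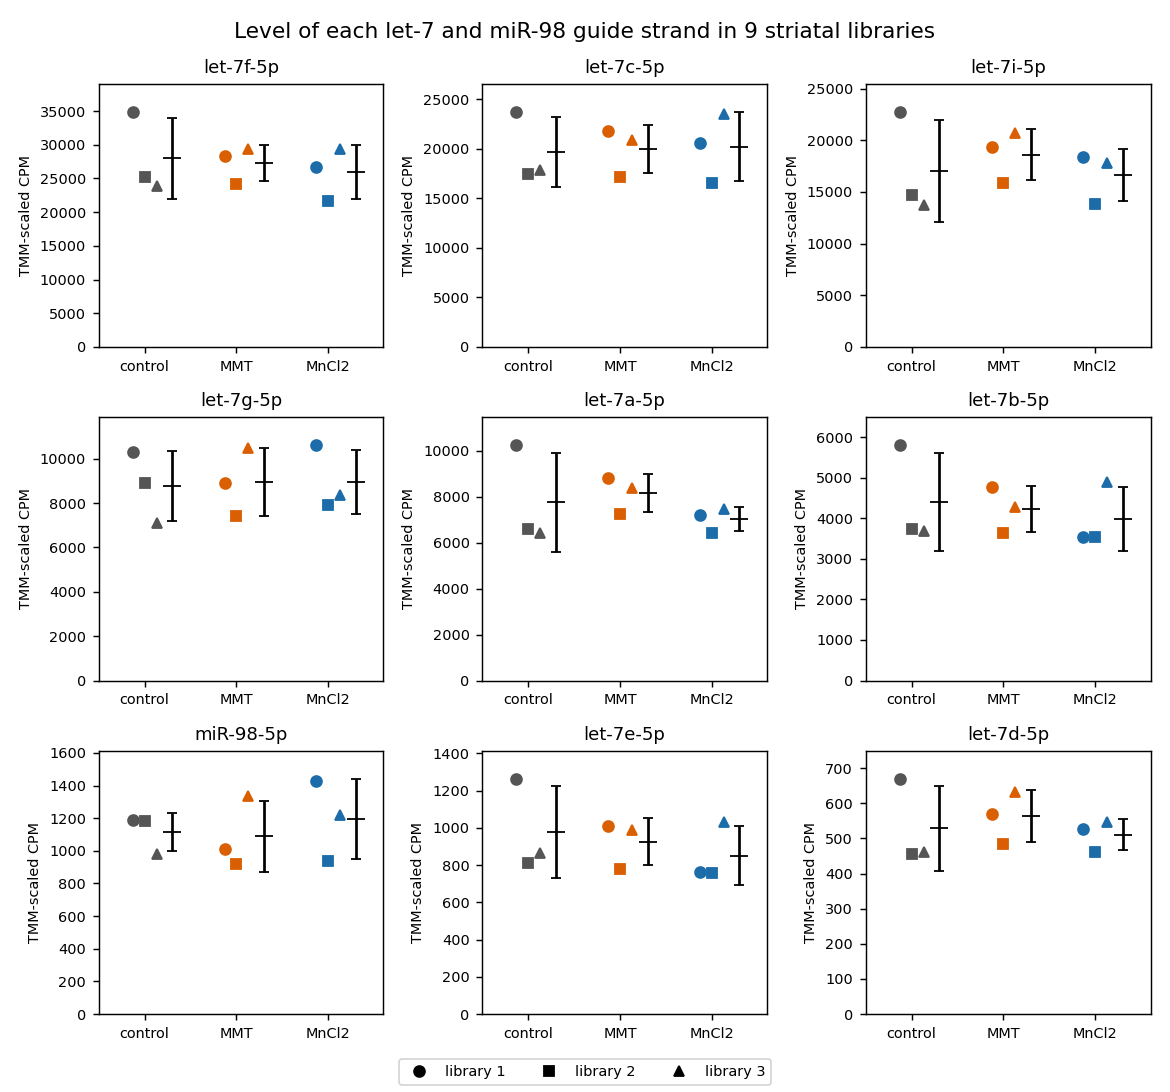
Level of each of the 9 guide strands (CPM scaled by TMM, each axis starting at 0) in the 3 control, 3 MMT and 3 MnCl2 libraries. Points are single libraries and bars are mean ± SD. The groups overlap for every member, and the highest point of all libraries for let-7f, let-7c, let-7i, let-7a, let-7b, let-7e and let-7d is control 1.

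The order let-7f, let-7c, let-7i, let-7g, let-7a, let-7b, miR-98, let-7e, let-7d was kept for 7 of its 8 neighbouring pairs in all 9 libraries. The exception was miR-98 over let-7e, which held in 8 libraries and turned in control 1 (ratio 0.94 there, up to 1.86 elsewhere). Some neighbours were nevertheless close. Let-7c exceeded let-7i by a ratio of 1.01 to 1.32, and let-7g exceeded let-7a by a ratio of 1.01 to 1.47. Wide steps lay between let-7i and let-7g (ratio 1.65 to 2.21), let-7a and let-7b (1.52 to 2.04), let-7b and miR-98 (2.48 to 4.88) and let-7e and let-7d (1.46 to 1.89). Across these 4 steps, the lowest value of the higher member was above the highest value of the lower one over the 9 libraries. The members are equal in length, so no length term is needed to set their levels side by side. Let-7a, let-7d, let-7e and let-7f have antisense entries, described below, that are not added to their levels. Such entries were large beside some steps: miR-3596c averaged 897 CPM, with let-7e at 919 and miR-98 at 1133. MiR-3596a averaged 3831 CPM, with let-7a at 7646 and let-7g at 8887. Whether they hold reads of the guides was not tested, so these places in the order are uncertain to that extent. By loci, let-7f and let-7c, with 2 each, were the 2 most abundant members, while let-7i and let-7g, with 1 each, stood above let-7a, which has 2. Over the 9 libraries a member's highest value was 1.43 to 1.67 times its lowest. The coefficient of variation was 13.9% to 18.9% with a median of 15.9%, beside a median of 17.8% for the 96 other miRNA entries at least as abundant as let-7d.

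The comparison of MMT with control asks whether these miRNAs differed after the organic compound, which shared its corn oil vehicle with the controls. No member passed the test: 0 of 9 were called by edgeR's quasi-likelihood test at an adjusted p under 0.05, where 0% of all 1113 tested entries were called. At an unadjusted p under 0.05, edgeR had 0 of 9 members, against 2.16% of all entries. DESeq2, run on all 1759 entries, called 0 as well, with 24 of the 1759 at an unadjusted p under 0.05. No member had groups that did not overlap, which held for 1.8% of entries in the higher and 2.79% in the lower direction. Let-7i had the largest difference of a member, a log2 fold change of 0.13 (SE 0.23, 95% interval -0.37 to 0.62, edgeR adjusted p = 1). Let-7e lay at the other end with -0.08 (95% interval -0.51 to 0.35). The 9 values had a median of 0.02, with 5 above 0 (as for 53.1% of all entries and 57.4% of miRNAs) and 4 below, next to a median of 0.01 for all entries tested and 0.04 for the 615 miRNAs tested. The side on which they fell depended on single control libraries: 9 of 9 were above 0 without control 1 (median 0.19) and 1 of 9 without control 3 (median -0.09).

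MnCl2 served as the positive control of the study. Again 0 of 9 members were called against control by edgeR's adjusted p, beside 0% of all entries, and 0 of 9 at an unadjusted p under 0.05, beside 4.58%. DESeq2, again run on all 1759 entries, called 0, with 75 of the 1759 at an unadjusted p under 0.05. No member had groups that did not overlap, which was the case for 4.76% of entries in the higher and 4.94% in the lower direction. Let-7e had the largest difference, a log2 fold change of -0.21 (SE 0.20, 95% interval -0.64 to 0.23, edgeR adjusted p = 0.843). Next came let-7b with -0.15 (95% interval -0.61 to 0.32) and let-7a with -0.14 (95% interval -0.57 to 0.29). MiR-98 was the highest, with 0.09 (95% interval -0.31 to 0.50). Of the 9 members 3 had a value above 0, whereas 57.3% of all entries and 77.4% of the miRNAs tested did. The member median was -0.05, next to 0.06 for all entries and 0.23 for miRNAs. Scaling by miRNA entries alone lowered the miRNA median from 0.23 to -0.05 and the member median to -0.33, with 0 members called. This side, too, varied with the control libraries used: 9 of 9 were above 0 without control 1 (median 0.14) and 0 of 9 without control 3 (median -0.24).

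The compounds differ in form, an organic manganese carbonyl and an inorganic salt, and were given at different doses and in different vehicles. Their levels are therefore set side by side. In edgeR's test of MMT against MnCl2, 0 of 9 members were called, beside 0% of all entries. At an unadjusted p under 0.05 there were 0 of 9 members beside 1.98% of entries. DESeq2 called 0 of all 1759 entries, with 26 of the 1759 at an unadjusted p under 0.05. Let-7a had the largest value, a log2 fold change of 0.21 (SE 0.20, 95% interval -0.22 to 0.64, edgeR adjusted p = 0.981), from 8154 ± 815 CPM in MMT and 7032 ± 537 in MnCl2 (SD, n = 3). Its groups overlapped by 1 library, since MMT 2 was at 7249 and MnCl2 3 at 7463 CPM. MiR-98 was lowest with -0.13 (95% interval -0.54 to 0.28). Of the members 6 had a value above 0, as 41.9% of all entries and 27.2% of miRNAs did. No member had groups that did not overlap, beside 4.31% of entries in the higher and 4.76% in the lower direction. The members' median was 0.08, beside -0.06 for all entries and -0.19 for miRNAs. A p above the threshold does not show that levels were equal: over the 27 differences the 95% intervals reached from a log2 value of -0.64 to 0.66, so a change of the size of 0.64-fold or 1.58-fold lay within them.

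**Figure D2:**
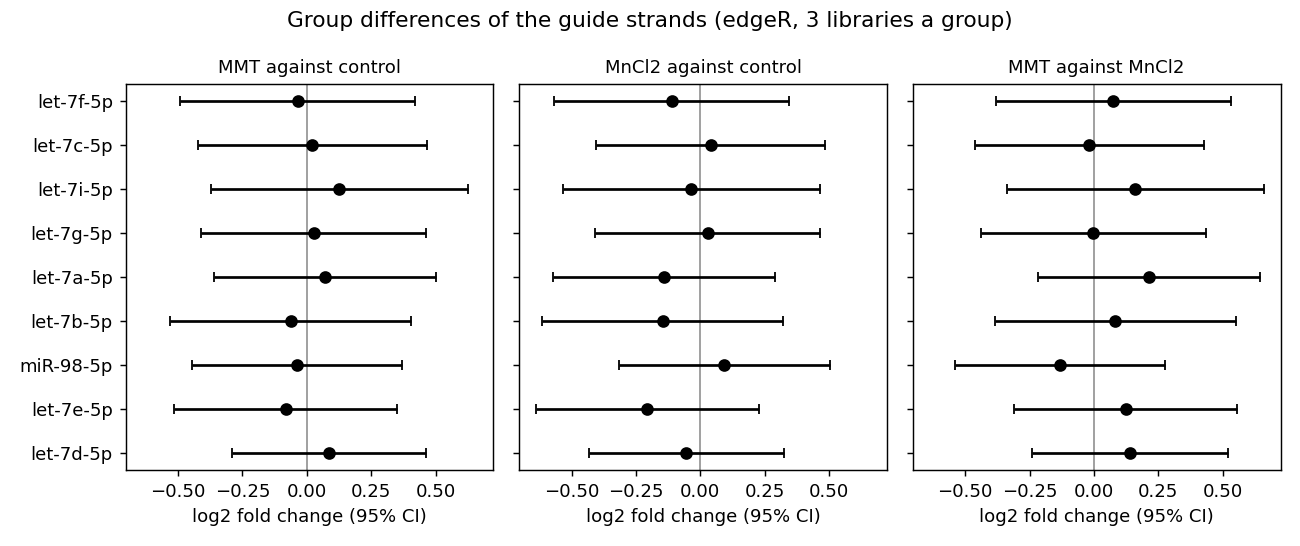
Log2 fold change of each guide strand with its 95% interval from edgeR, for MMT against control, MnCl2 against control and MMT against MnCl2. The line at 0 marks equal levels, and all 27 intervals cross it.

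The make-up of the family was compared next, as the share of each member in the summed member counts. This measure does not depend on scaling between libraries, and leaves out the antisense miR-3596 entries described below. Let-7f made up 31.5%, 31.9% and 31.8% in control libraries, 29.9%, 31.2% and 30.3% in MMT, and 29.8%, 30.0% and 31.2% in MnCl2. Its control libraries lay above every treated library. It was the only member whose groups did not overlap, 1 of 9 or 11.1% in each comparison with control. That is near the fraction of 0.1 of the arrangements of 3 against 3 libraries that separate the groups fully for any measure. The mean was 31.7% ± 0.232 in control, 30.5% ± 0.63 in MMT and 30.3% ± 0.795 in MnCl2 (SD, n = 3). By an exact two-sided permutation test p was 0.1 in each comparison, the smallest that 3 against 3 libraries allow, and the values adjusted over 9 members were 0.54 and 0.771. Both comparisons share the control libraries. As a share of all miRNA counts, let-7f overlapped between the groups.

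Other shares varied within the groups. Let-7g took 9.29%, 11.3% and 9.49% in control, 9.41%, 9.54% and 10.8% in MMT, and 11.8%, 11.0% and 8.86% in MnCl2. MiR-98 took 1.07%, 1.50% and 1.31% in control, 1.07%, 1.18% and 1.37% in MMT, and 1.59%, 1.30% and 1.30% in MnCl2. For both members, control 2, MMT 3 and MnCl2 1, 1 library of each group, were among the 4 highest. Let-7b took 5.23%, 4.72% and 4.92% in control, 5.03%, 4.67% and 4.40% in MMT, and 3.93%, 4.90% and 5.20% in MnCl2. Let-7e took 1.14%, 1.03% and 1.15% in control, 1.06%, 1.01% and 1.02% in MMT, and 0.851%, 1.05% and 1.10% in MnCl2. These 2 members were lowest in MnCl2 1, where let-7g and miR-98 were highest. Let-7i ranged from 18.3% to 21.3%, let-7c from 21.4% to 25.0%, let-7a from 7.92% to 9.33% and let-7d from 0.578% to 0.652%. As a description over 9 libraries, Pearson's r between shares was 0.90 for let-7b with let-7e and 0.80 for let-7g with miR-98. It was -0.80 for let-7b with let-7g and for let-7a with miR-98. Shares of one total are bound to each other, and the points are the same libraries.

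The choroid plexus marker miR-204-5p, from a tissue that borders the striatum, was set beside the miR-98 share. It stood at 348, 1031 and 709 CPM in control, 238, 201 and 1922 in MMT, and 1146, 224 and 367 in MnCl2. The 4 libraries with the most miR-204-5p (MMT 3, MnCl2 1, control 2 and control 3) were also the 4 with the highest miR-98 share. The margin was small, since control 3 had a share of 1.31% and both MnCl2 2 and MnCl2 3 had 1.30%. This match was not among the planned comparisons. The let-7g share did not give the same 4 libraries: it was 11.0% in MnCl2 2 and 9.49% in control 3. The other choroid marker, miR-211-5p, did not follow miR-204-5p. It ranged from 7.79 CPM in control 1 to 27.4 CPM in control 3, and was at 13.5 CPM in MMT 3, where miR-204-5p was highest. The part of this tissue in the result was not tested.

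**Figure D3:**
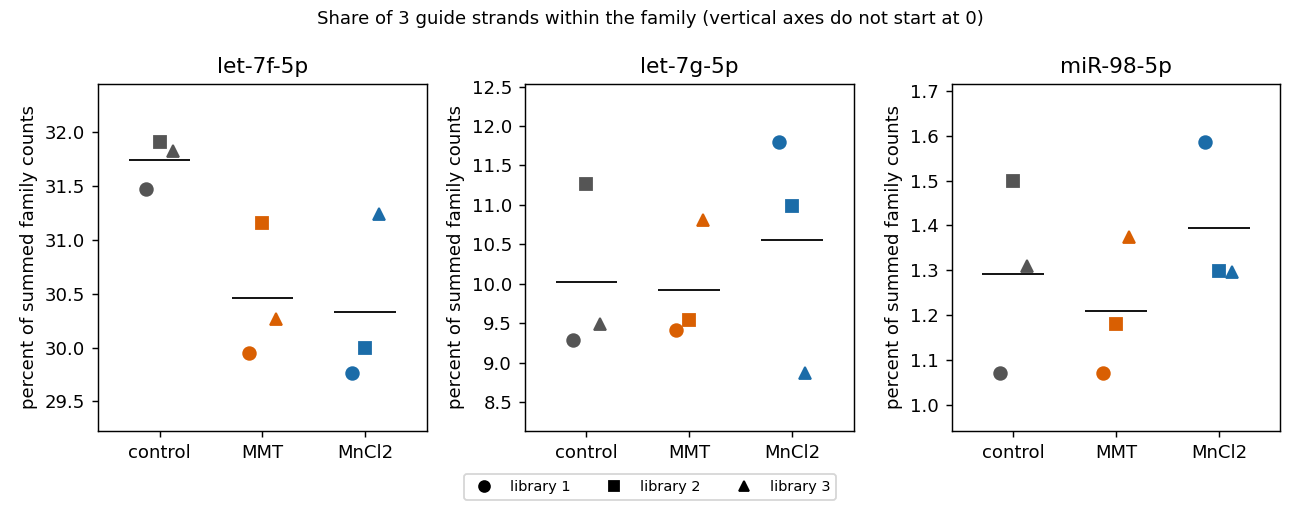
Share of let-7f, let-7g and miR-98 in the summed counts of the 9 members (percent, axes that do not start at 0) by library, with a line at the group mean. The 3 control points of let-7f, from 31.5% to 31.9%, lie above all treated points, while let-7g and miR-98 overlap between groups.

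The levels of most members varied together across libraries. Over the 36 pairs, Pearson's r of log2 CPM had a median of 0.83 and ran from 0.23 (let-7b with miR-98) to 0.98 (let-7b with let-7e), as a description over 9 libraries that share depth and scaling. Against the log2 summed level of the family, r was 0.98 for let-7f, 0.97 for let-7i and 0.95 for let-7d, and lower for let-7g (0.76) and miR-98 (0.60). The family's summed level was followed most closely by miR-148b-3p (r = 0.97) and miR-26b-5p (r = 0.96) among the 1087 other entries compared. Then came miR-29a-3p, miR-30a-5p and miR-3556a, each with r = 0.94 over the 9 libraries. MiR-3556a is the antisense entry of miR-29a-3p.

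Depth moved with several members. Control 1, the deepest library, was the highest in 7 of 9 members. Over the 9 libraries, Pearson's r between log2 CPM and log2 total was 0.85 for let-7a (exact permutation p = 0.00376, adjusted over 9 members 0.0183) and 0.85 for let-7d (adjusted exact permutation p = 0.0183). It lay between 0.78 and 0.79 for let-7b, let-7e, let-7f and let-7i (adjusted exact permutation p = 0.0195 each). Let-7g had 0.68 and let-7c 0.63 (adjusted exact permutation p = 0.0585 and 0.0833), and miR-98 had 0.35 (adjusted exact permutation p = 0.347). Spearman's rho ran from 0.43 to 0.78, with adjusted exact permutation p of 0.0765 to 0.25. Without control 1 and MMT 3, whose total counts lay farthest from the median, r was between 0.10 and 0.63 over 7 libraries (adjusted exact permutation p of 0.431 to 0.831). Without control 1 and control 3, the farthest on the log2 scale, it was between 0.23 and 0.74 (adjusted exact permutation p of 0.330 to 0.610). Both sets have fewer libraries and a narrower range of totals. The relation also passed for 0 members without control 1 alone, so the calls rest on that library, and for 0 members with CPM not scaled by TMM. With the log2 total as a covariate in the edgeR fit, the member medians were 0.01 for MMT against control, 0.05 for MnCl2 against control and -0.03 for MMT against MnCl2, and 0 members were called.

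**Figure D4:**
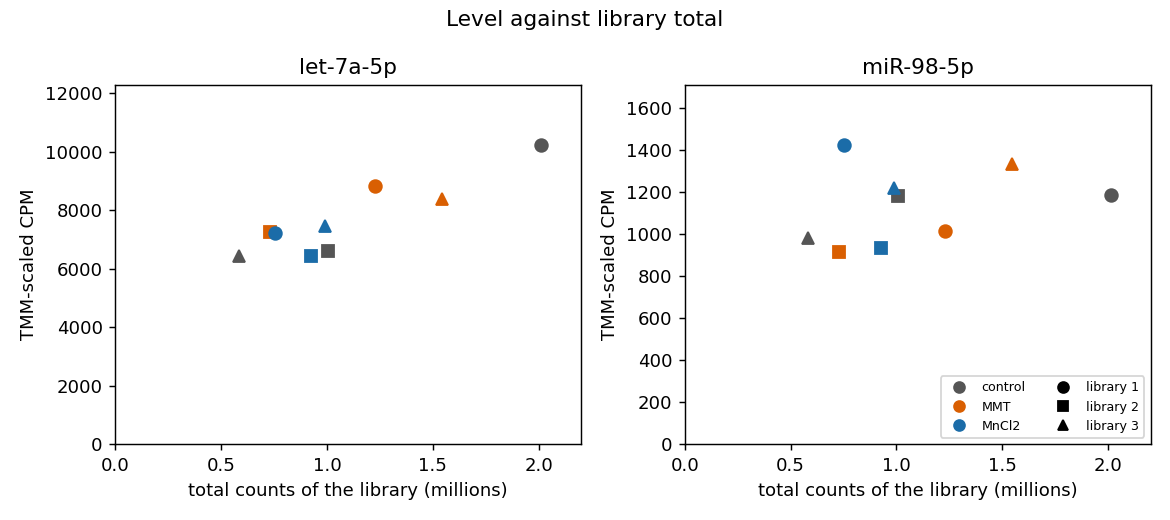
Level of let-7a-5p and miR-98-5p (CPM scaled by TMM) against the library total (axis in units of 1000000 counts), 1 point per library, marked by group. The point at the far right is control 1, with 2012769 counts, where let-7a is highest and miR-98 is not.

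Entries annotated on the opposite strand were listed too. RefSeq holds 4 miRNAs, miR-3596a to miR-3596d, that lie across let-7 loci in the opposite direction, and these are the only listed entries complementary to a member over at least 16 bases. They are printed to show the complement of the let-7 seed, in capitals, of which miR-3596b holds all but the last base because its annotated sequence ends there.
miR-3596a: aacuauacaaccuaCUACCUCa
miR-3596b: aacuaugcaaccuaCUACCU
miR-3596c: acuauacaaccucCUACCUCa
miR-3596d: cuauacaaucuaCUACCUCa
The let-7e locus shows the layout. Its guide lies at chr1:67350243-67350264 on the plus strand (GRCr8), and miR-3596c at chr1:67350243-67350263 on the minus strand. The let-7e hairpin, with the guide in capitals, reads as follows.
Mirlet7e: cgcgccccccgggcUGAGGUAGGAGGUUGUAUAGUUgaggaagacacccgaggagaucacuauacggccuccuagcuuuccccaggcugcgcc

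Each antisense entry held a near-constant fraction of its partner's counts. MiR-3596c held 8940 counts over all libraries beside 9176 for let-7e, or 97.4%, and the value by library ran from 91.0% to 102%. MiR-3596b held 5121 beside 5289 for let-7d, or 96.8% (90.3% to 101%). Let-7e and let-7d each have 1 locus, with the antisense entry across it. For the guides with 2 loci, of which 1 has the antisense entry, the level was lower. MiR-3596d held 128595 counts beside 267464 for let-7f, or 48.1% (47.4% to 48.9%). MiR-3596a held 38019 beside 76182 for let-7a, or 49.9% (48.3% to 52.9%). MiR-3596a is also complementary over at least 16 bases to let-7b and let-7c. Across the 9 libraries, r of log2 CPM between partners was 0.998 for let-7f, 0.985 for let-7a, 0.974 for let-7e and 0.968 for let-7d, as a description. Whether counting used strand is not given in the sources used here, so reads of the opposite strands cannot be told apart. None of the 4 was called in any comparison by edgeR (adjusted p from 0.851 to 1).

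**Figure D5:**
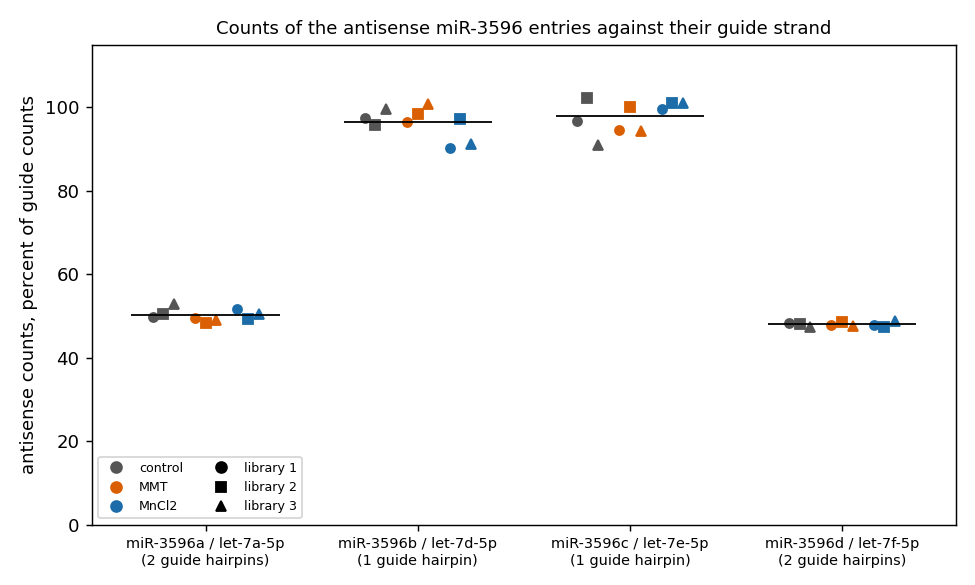
Counts of each miR-3596 entry as percent of those of its guide strand, 1 point per library, with a line at the mean of the 9 libraries. The entries across the single loci of let-7d and let-7e lie between 90.3% and 102%, and those of let-7a and let-7f, which have 2 loci, between 47.4% and 52.9%.

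Passenger strands were scarce beside the guides. The 12 listed passengers held 4600 counts over all libraries, 5.31 per 1000 guide counts, with a range by library from 3.97 in control 1 to 6.98 in MnCl2 2. MiR-98-3p had the highest value, 25.5 per 1000 counts of miR-98-5p (20.2 to 38.7 by library). Let-7a-1-3p followed with 16.3 per 1000 counts of let-7a. Let-7d-3p had 6.43, let-7c-2-3p 6.29, let-7b-3p 5.53, let-7e-3p 5.23, let-7i-3p 3.57 and let-7f-2-3p 2.06 per 1000 guide counts. Below 1 per 1000 were let-7g-3p (0.792), let-7c-1-3p (0.763), let-7a-2-3p (0.591) and let-7f-1-3p (0.396). Let-7a-1-3p and let-7c-2-3p are the same 22 bases, printed because the single sequence is listed under both names.
let-7a-1-3p and let-7c-2-3p: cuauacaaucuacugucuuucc
The entries held 1240 and 1228 counts and differed by at most 25 in a library, so which locus they came from cannot be told apart. Both are in the total of 4600 counts and in its range by library. Whether the same reads were counted under both names is not known. The entries' values of 16.3 and 6.29 per 1000 differ mainly by the guide counts beside them, 76182 for let-7a and 195287 for let-7c.

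Of the 12 passengers, 8 passed the filter on low counts, and let-7a-2-3p, let-7d-3p, let-7e-3p and let-7g-3p (34 to 69 counts each) did not. None was called by edgeR in any comparison. Let-7f-1-3p, from the locus next to Mirlet7d, was at 9.46, 5.87 and 9.13 CPM in control, 11.9, 16.3 and 19.2 in MMT, and 4.15, 10.8 and 9.45 in MnCl2. All 3 MMT libraries lay above all control libraries, as for 1.8% of all entries tested, and above all MnCl2 libraries, as for 4.31%, at 106 counts in all. It was singled out of the 8 tested passengers after its values were seen. The entry also passed the filter on low counts only through the MMT libraries, the group where it was high. Its separation and fold change are therefore a description, and the shares of all entries do not correct for this selection. Its log2 fold change of MMT against control was 0.94 (SE 0.54, 95% interval -0.25 to 2.14), with an unadjusted edgeR p of 0.109 and an adjusted p of 1. The guide from the same hairpin, let-7f-5p, stood at -0.04 (95% interval -0.49 to 0.42) in that comparison, although it also counts the chromosome X locus. Let-7f-2-3p, from that locus, had 0.25 (95% interval -0.37 to 0.87).

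Among the listed entries, 1 more shared at least 16 bases with a member on the same strand. This was miR-352, which resembles let-7d but lacks the let-7 seed, and is printed to show the likeness.
miR-352: agaguaguagguugcauagua
It held 39 counts over all 9 libraries, where let-7d held 5289.

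Some let-7 genes share a precursor with other miRNAs, of the miR-99/100 and miR-125 families, which have seeds of their own. MiR-125b-5p, a neuronal and glial miRNA, was the most abundant of the 5 examined, with a control mean of 7565 ± 2220 CPM, an MMT mean of 8291 ± 1678 and a MnCl2 mean of 7801 ± 1039 (SD, n = 3). MiR-125a-5p, the neighbour of let-7e, was at 1775 ± 666, 1778 ± 346 and 1612 ± 293 CPM. MiR-99a-5p stood at 811 ± 114, 889 ± 174 and 977 ± 240 CPM, while miR-99b-5p and miR-100-5p were lower, with control means of 306 and 275 CPM. The largest difference of these 5 was that of miR-99a-5p in MnCl2 against control, a log2 fold change of 0.27 (SE 0.20, 95% interval -0.18 to 0.71, edgeR adjusted p = 0.843). None of the 5 was called in any comparison.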

How the data were processed

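Small RNA of rat striatum was measured in 9 libraries. TRIzol extraction, gel selection of 15 to 45 nucleotides and ligation of QIAseq miRNA kit adapters are stated per the labels' protocols. Trimmomatic and rn6 are named per the submitters' processing notes. How reads were aligned, and the use of mismatches, strand, multiple matches and molecular tags, is not given in the sources used here, so the order of near-identical members depends on an unknown assignment. The authors deposited raw counts per entry, 1 column a library, without normalization.

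Totals ran from 583045 to 2012769. A robust two-sided quasi-likelihood test of edgeR 4.0.16 (R 4.3.3) was fitted once to all 9 libraries, after filterByExpr and TMM scaling. The filter left 1113 entries (615 miRNAs) and all 9 members. P-values were adjusted by Benjamini-Hochberg over all entries at a threshold of 0.05, and the biological coefficient of variation was 0.279. Fold-change intervals use the fit's degrees of freedom. Levels are CPM scaled by TMM. For family shares, the exact two-sided permutation test had 20 arrangements. The edgeR script was tested on simulated data.

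The members and lists were chosen with earlier results of these data known. Named were all 9 members, their 12 passengers, 5 miRNAs of the same clusters, entries sharing the seed or 16 bases with a member on either strand, and the 5 entries most like the summed family by Pearson's r. Tried as alternatives were other filters, DESeq2 1.42.0, total-count or RLE scaling, miRNAs alone, antisense entries removed, the compared groups alone, the replicate number as a block, depth as a covariate, no robust weights, and each library left out. Other steps used matplotlib 3.10.9, pandas 2.3.3, scipy 1.17.1 and numpy 2.4.6 (Python 3.11.15). Loci and sequences are from RefSeq (GRCr8); that of miR-352 is from the deposited table.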

Additional observations from a re-analysis of the deposited data

How the results depend on the processing

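No member was called under any of the 21 alternatives in any comparison. Of the 567 member values, 91 had another sign than with the main settings and 0 reversed beyond their standard errors. The lowest adjusted p of a member was 0.472, from edgeR in MnCl2 against control without control 3. For that comparison the member median was -0.33 with miRNA entries alone, against -0.05 above. That alternative scales by miRNAs, and the median of all miRNAs moved from 0.23 to -0.05 with it. Without a low-count filter, 1 entry outside the family was called in that comparison. With single libraries left out, the medians ran from -0.09 to 0.19 for MMT against control, -0.24 to 0.14 for MnCl2 against control and 0.00 to 0.25 for MMT against MnCl2. The relation of level to total count passed for 6 members, for 0 with total-count scaling, for 0 without control 1 and control 3 (chosen after seeing the data), and for 0 (without control 1) to 7 with 1 library left out; the cause was not tested. The planned filter of 10 CPM in 3 libraries kept the same 1113 entries, and a filter of 50 CPM, chosen after seeing the data, also called 0.

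Same-numbered libraries of different groups correlated from -0.67 to 0.49 in their deviations from the group means. The labels give them only a shared number, and these values cannot decide whether they were paired. With the replicate number as a block, the member medians were 0.02, -0.04 and 0.08, with 0 members called. The smallest entries bear the widest errors: let-7f-1-3p rests on 106 counts.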
